A study of Mus musculus with 7 samples.

Results

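The 8 tRNAs that the mitochondrial heavy strand encodes downstream of mt-Co1 were followed in small RNA libraries from crude heart mitochondria: mt-Td, mt-Tk, mt-Tg, mt-Tr, mt-Th, mt-Ts2, mt-Tl2 and mt-Tt. They were taken by name, and all 8 were found among 49584 listed features, of which 36 are mitochondrially encoded and 22 are mitochondrial tRNAs. The knockout group (L/L, cre; Tefm -/-) had 4 libraries and the control group (L/L; genotype given as Tefm +/+) had 3. Both groups carried Tefm alleles with 1 exon between loxP sites. The knockouts also carried cre driven by the promoter of muscle creatine kinase, a promoter active in muscle cells and not in the other cells of the heart. The labels leave out the age of the mice. The design text counts 4 control mice, and each library was taken as 1 mouse. If some libraries shared a mouse, the p-values would cover library spread only.

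The heavy strand of mitochondrial DNA is transcribed as a long precursor in which tRNAs stand between the rRNAs and mRNAs. RNase P cuts at the 5′ end of each tRNA and the RNase Z enzyme ELAC2 at its 3′ end, which frees the tRNA and its neighbours. A CCA tail and base modifications are added afterwards, and each tRNA then carries 1 amino acid to the mitochondrial ribosome, which makes membrane subunits of the respiratory chain that heart muscle depends on. TEFM is the elongation factor that keeps the mitochondrial RNA polymerase on its template, and the comparison asked what its loss does to RNAs at different distances along the transcript.

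The 8 tRNAs lay on the plus strand of chromosome M (GRCm38, GENCODE M21). mt-Td (aspartate) spanned chrM:6942-7011, between mt-Ts1 on the opposite strand and mt-Co2. mt-Tk (lysine) spanned chrM:7700-7764, between mt-Co2 and mt-Atp8. mt-Tg (glycine) spanned chrM:9391-9458, abutting mt-Co3 and mt-Nd3 with 0 bases between. mt-Tr (arginine) spanned chrM:9808-9875, between mt-Nd3 and mt-Nd4l. mt-Th (histidine), mt-Ts2 (serine) and mt-Tl2 (leucine) followed mt-Nd4 as a block at chrM:11546-11612, chrM:11613-11671 and chrM:11671-11741, the last pair sharing 1 annotated base. mt-Tt (threonine) closed the series at chrM:15289-15355, after mt-Cytb and directly before mt-Tp of the opposite strand. Their starts lay 6941 (mt-Td) to 15288 bases (mt-Tt) from the start of mt-Tf, the first gene of the transcript.

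The 3 tRNAs of the block and the 2 tRNAs with the lowest levels are shown as DNA from the GENCODE M21 transcripts, 5′ to 3′, with the anticodon in capitals.
mt-Th: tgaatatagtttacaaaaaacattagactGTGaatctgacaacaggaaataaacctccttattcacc
mt-Ts2: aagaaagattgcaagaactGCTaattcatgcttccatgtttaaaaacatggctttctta
mt-Tl2: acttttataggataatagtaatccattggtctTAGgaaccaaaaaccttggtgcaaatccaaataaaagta
mt-Tr: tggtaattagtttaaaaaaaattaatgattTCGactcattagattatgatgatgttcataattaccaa
mt-Td: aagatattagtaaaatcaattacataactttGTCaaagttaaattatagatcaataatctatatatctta
mt-Ts2 is the shortest of the 8 at 59 bases, against 65 to 71 for the others, and its anticodon starts at base 20, against base 27 or later in the others. This serine tRNA is known for lacking the D arm. mt-Td and mt-Tr are the poorest in G and C, at 17.1% and 22.1%, against 30.9% (mt-Tg) to 34.3% (mt-Tt) for the other 6.

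Total counts ran from 973835 to 1302619 in knockouts and from 1560798 to 2570739 in controls. The targeted gene could not be checked, since Tefm had 0 to 2 counts in each library of either group. All 10 cardiomyocyte markers had counts, summing to 1838 to 14507 CPM (counts scaled to the library total) in knockouts and 4794 to 7489 CPM in controls. Log2 fold changes were negative for 10 of 10 cardiomyocyte markers, 4 of 4 endothelial markers, 2 of 5 fibroblast markers and 2 of 2 tested white blood cell markers, where 49.3% of all features tested were negative. Of these, 1 was called, the white blood cell marker Cd74 at -2.12 (edgeR adjusted p = 0.0342). In the TMM-scaled CPM used for the tRNAs below, every cardiomyocyte marker but Ttn had all knockouts below all controls. So had Cdh5, Cd74 and Lyz2, where 9.9% of all features tested had. The other endothelial markers and the fibroblast markers overlapped. Ptprc and Cd68, the white blood cell markers with too few counts to test, were not lower. Ptprc had 18 counts over the knockouts and 4 over the controls, and Cd68 had 5 and 5. Sums were 17.1 to 229 CPM in knockouts and 44.8 to 135 CPM in controls for 4 endothelial markers, and 99 to 1791 CPM in knockouts and 149 to 363 CPM in controls for 5 fibroblast markers. For 5 erythroid markers they were 3.84 to 28 CPM in knockouts and 11.3 to 13.9 CPM in controls, and for 4 white blood cell markers 7.80 to 59.0 CPM in knockouts and 15.4 to 33.8 CPM in controls. Liver markers, 2 of 4 of them without counts, summed to at most 1.56 CPM in any library. The part of these cells in the results was not tested. The libraries differed within each group in make-up, taken as the log2 of counts in microRNAs plus snoRNAs over counts in nuclear protein-coding genes. It was 1.84, 3.11, 0.54 and -2.44 in knockouts 1 to 4, and 2.88, -1.35 and 0.61 in controls 1 to 3. In bulk RNA of this kind, fewer mitochondria or cells of a type and less RNA in each cannot be told apart.

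The 8 tRNAs together took 11.8%, 8.79%, 8.32% and 5.28% of all counts in knockouts 1 to 4 and 12.1%, 6.62% and 9.41% in controls 1 to 3. The widest of the 95% Wilson intervals, in knockout 1, ran from 11.8% to 11.9%, and such intervals cover counting error only. mt-Th and mt-Ts2 made up 83.3% to 95.7% of the counts of the 8 in knockouts and 83.5% to 85.9% in controls. Among mitochondrial tRNA counts alone, the 8 held 40.4%, 41.4%, 20.9% and 13.8% in knockouts 1 to 4 and 55.1%, 54.9% and 41.8% in controls 1 to 3. Every knockout lay below every control, knockout 2 and control 3 being the closest pair. The 8 light-strand tRNAs were lower without overlap as well, at 7.76% to 8.89% in knockouts and 11.1% to 19.5% in controls. The 6 proximal heavy-strand tRNAs were higher, at 50.7% to 77.4% in knockouts and 25.5% to 47.2% in controls. Without mt-Th and mt-Ts2, the other 6 held 1.74%, 1.97%, 1.75% and 2.31% in knockouts, against 7.78%, 9.04% and 6.04% in controls, and the groups were again apart.

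Although the 8 tRNAs come from 1 transcript, their levels per base (normalised counts, CPM, divided by annotated length) differed widely in both groups. The highest exceeded the lowest 247-fold to 2486-fold in knockouts and 305-fold to 597-fold in controls. mt-Th and mt-Ts2 were the top pair in all 7 libraries and mt-Tg came next in all 7. In knockouts the means were 793 CPM per base for mt-Th, 773 for mt-Ts2 and 59.8 for mt-Tg. In controls they were 1180 for mt-Ts2, 602 for mt-Th and 205 for mt-Tg. mt-Tk, mt-Tl2 and mt-Tt lay close together, at 8.01, 7.39 and 6.44 CPM per base in knockouts and 27.5, 20.2 and 18.5 in controls, with ranges that overlapped between neighbours in that order. The ranges of mt-Th and mt-Ts2 overlapped in both groups, and those of mt-Th and mt-Tg in controls. mt-Td and mt-Tr were lowest in every library, at 1.46 and 0.873 CPM per base in knockouts and 3.04 and 3.99 in controls. Small RNA libraries read a tRNA according to how well it is ligated and copied, so these levels rank reads and need not rank molecules.

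**Figure D1:**
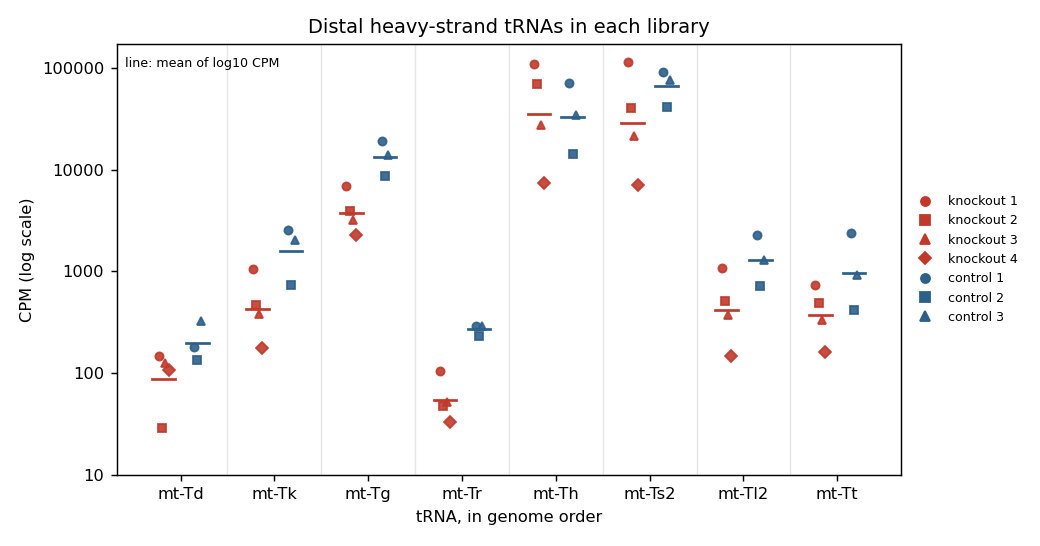
CPM on a log scale (y axis) of the 8 distal heavy-strand tRNAs in genome order (x axis), with 1 point for each of 4 knockout (red) and 3 control (blue) libraries and a line at the mean of log10 CPM. The groups are apart for mt-Tr and mt-Tg and overlap for the other 6.

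mt-Tr, the arginine tRNA, fell in knockouts and was the only 1 of the 8 to pass the test over all features. It had 105, 47.2, 52.2 and 32.8 CPM in knockouts 1 to 4, against 293, 233 and 289 CPM in controls 1 to 3. Every knockout lay below every control. The means were 59.4 ± 31.7 CPM in knockouts and 272 ± 33.5 CPM in controls (SD, n = 4 and 3). The log2 fold change was -2.20 ± 0.52 (SE), with a Benjamini-Hochberg adjusted p = 0.0461 by edgeR's quasi-likelihood test. These rest on 69, 47, 79 and 104 counts in knockouts and 291, 594 and 422 in controls. So 1 of the 8 fell and 0 rose, where 1.73% of 1505 features tested fell, 5.25% rose and 6.98% did either. The call was near its threshold. The edgeR adjusted p was 0.0343 without knockout 1, and 0.15, 0.185 and 0.0964 without knockouts 2, 3 and 4. It was 0.0746, 0.115 and 0.133 without controls 1, 2 and 3.

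mt-Tg, the glycine tRNA beside mt-Nd3, was the other member whose groups were apart. It had 6871, 3920, 3220 and 2261 CPM in knockouts 1 to 4, against 19125, 8746 and 13891 CPM in controls 1 to 3. The highest knockout lay below the lowest control. Its log2 fold change was -1.77 ± 0.69 (SE; edgeR unadjusted p = 0.0334, adjusted p = 0.164), which does not pass over all features. So 2 of the 8 had groups apart with knockouts lower, where 9.9% of all features tested did, and 0 had them apart with knockouts higher, where 14% did. With DESeq2 in place of edgeR, mt-Tg fell as well as mt-Tr (adjusted p = 0.0438 and 0.0045), 2 of the 8 where 2.3% of features fell.

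For mt-Tk, mt-Tl2, mt-Tt and mt-Td the knockout means were lower and the groups overlapped. mt-Tk, the lysine tRNA between mt-Co2 and mt-Atp8, had 1058, 470, 380 and 176 CPM in knockouts 1 to 4, against 2577, 737 and 2041 CPM in controls 1 to 3. Only knockout 1 reached the range of the controls. mt-Tl2, the leucine tRNA that reads CUN codons, had 1071, 509, 372 and 146 CPM in knockouts, against 2298, 716 and 1291 CPM in controls. mt-Tt, the threonine tRNA at the far end, had 741, 492, 332 and 162 CPM in knockouts, against 2368, 418 and 924 CPM in controls. For both, knockout 1 exceeded control 2, and for mt-Tt knockout 2 did as well. mt-Td, the aspartate tRNA nearest the promoter among the 8, had 147, 29.1, 126 and 106 CPM in knockouts, against 181, 134 and 324 CPM in controls. Its 29 counts in knockout 2 were the fewest of any member in any library. The log2 fold changes were -1.78 ± 0.78 for mt-Tk, -1.45 ± 0.79 for mt-Tl2, -1.52 ± 0.79 for mt-Tt and -1.06 ± 0.63 for mt-Td (SE). Their edgeR adjusted p-values were 0.22, 0.304, 0.291 and 0.344.

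The abundant pair of the block varied most among knockouts. mt-Th, the histidine tRNA, had 108266, 69279, 27748 and 7327 CPM in knockouts 1 to 4, against 71855, 14397 and 34661 CPM in controls 1 to 3. The knockouts thus spanned the whole range of the controls and more, and the log2 fold change was 0.40 ± 1.06 (SE; edgeR adjusted p = 0.877). mt-Ts2, the serine tRNA for AGY codons, had 113890, 40145, 21280 and 7024 CPM in knockouts, against 91147, 41358 and 76353 CPM in controls. Knockout 1 was highest of all 7 and the other knockouts lay below every control. Its log2 fold change was -0.61 ± 1.02 (SE; edgeR adjusted p = 0.784).

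Across the 8, the log2 fold change was negative for 7, mt-Th being positive, where 49.3% of all features tested were negative. The median was -1.49, against 0.02 over all features. The sign of mt-Td was not the same under every scaling, since it was at 0.22 when libraries were scaled to mitochondrially encoded features. There mt-Th stayed positive, at 1.19. Such scaling put the median of the 8 at -0.55 and that of all features at 1.25. Scaling to total counts put the median of the 8 at -1.0 and that of all features at 0.93. In each of these, 0 of the 8 fell, where 0.0664% of all features did. Scaling to microRNAs put the median at -1.32 for the 8 and at 0.68 for all features, and 0 of the 8 fell, where 0% of features did. At an unadjusted p under 0.05, edgeR picked 2 of the 8, mt-Tr and mt-Tg, where it picked 23.5% of all features.

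**Figure D2:**
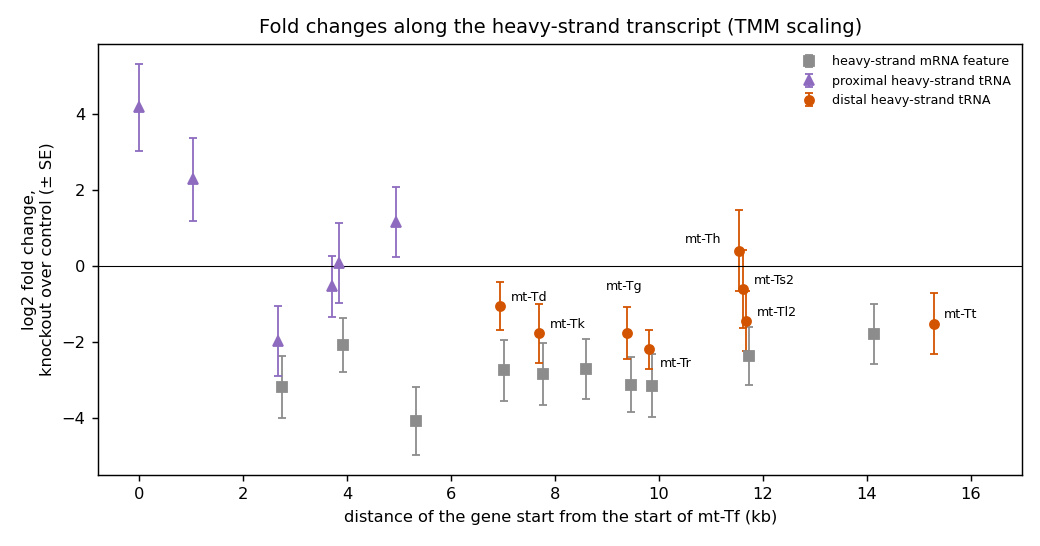
Log2 fold change of knockout over control ± SE (y axis, TMM scaling) against the distance of each gene's start from the start of mt-Tf in kb (x axis), for the 8 distal tRNAs (orange), the 6 proximal tRNAs (purple) and 10 mRNA features (grey) of the heavy strand. Of the 8, mt-Th is at 0.40 and mt-Tr at -2.20, and 7 lie below 0.

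The make-up of the libraries moved with these levels in controls and in part in knockouts. In controls, all 8 tRNAs were lowest in control 2, which had the lowest log2 value of make-up as given above, and 7 were highest in control 1, which had the highest. In knockouts, 7 of the 8 were lowest in knockout 4, which again had the lowest ratio. All 8 were highest in knockout 1, which had the second highest. In knockout 2, which had the highest ratio, 0 of the 8 were highest and mt-Td was lowest. The highest knockout exceeded the lowest 16.2-fold for mt-Ts2, 14.8-fold for mt-Th and 3.21-fold for mt-Tr. With that value as a covariate, 5 of the 8 fell, namely mt-Tr, mt-Tg, mt-Tk, mt-Tl2 and mt-Tt, where 11.6% of all features were called lower. Their log2 fold changes were -2.27 ± 0.34, -1.78 ± 0.41, -1.81 ± 0.42, -1.53 ± 0.40 and -1.36 ± 0.36 (SE; edgeR adjusted p = 0.000886, 0.00942, 0.00973, 0.0163 and 0.0179). mt-Td, mt-Ts2 and mt-Th had -1.10 ± 0.47, -1.01 ± 0.64 and 0.16 ± 0.51 and did not pass. Without the covariate, mt-Ts2 was at -0.61 and mt-Th at 0.40, and the other 6 differed less from their values with it. All 8 errors are smaller with it.

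**Figure D3:**
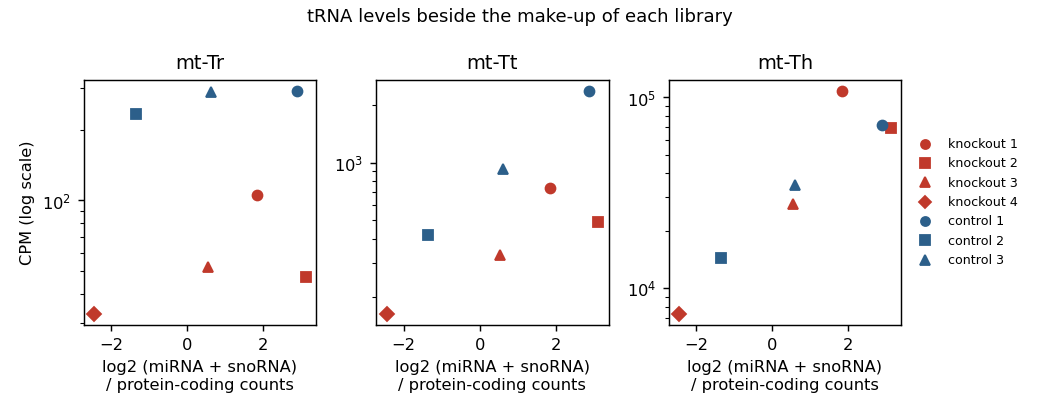
CPM on a log scale (y axes) of mt-Tr, mt-Tt and mt-Th against the log2 of counts in microRNAs plus snoRNAs over those in nuclear protein-coding genes of the same library (x axes), for 4 knockouts (red) and 3 controls (blue). mt-Th runs from 7327 CPM in knockout 4, at a ratio of -2.44, to 108266 CPM in knockout 1, at 1.84, while for mt-Tr all knockouts lie below all controls.

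Ratios between members within a library do not depend on scaling between libraries, and 8 such ratios were compared. They can still vary with the make-up of the library. Within both groups, mt-Th relative to mt-Tl2 and to mt-Tr rose in the order of the log2 value of make-up. For mt-Th relative to mt-Ts2 that order held in controls and not in knockouts. The part of make-up in the ratios was not tested. In the block, mt-Th was high relative to its neighbours in knockouts. There were 0.951, 1.73, 1.3 and 1.04 counts of mt-Th for each count of mt-Ts2 in knockouts 1 to 4, against 0.788, 0.348 and 0.454 in controls 1 to 3. Every knockout lay above every control. The log2 ratio was 0.29 ± 0.38 in knockouts and -1.0 ± 0.60 in controls (SD, n = 4 and 3), a 2.45-fold difference. The two-sided exact permutation test gave p = 0.0286 and adjusted p = 0.171 over the 8 ratios. With 35 ways to divide the libraries, that unadjusted p is the lowest possible.

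mt-Th was high relative to mt-Tl2 as well. There were 101, 136, 74.6 and 50.2 counts of mt-Th for each count of mt-Tl2 in knockouts, against 31.3, 20.1 and 26.8 in controls. Again every knockout lay above every control, with log2 ratios of 6.40 ± 0.62 in knockouts and 4.68 ± 0.32 in controls (SD, n = 4 and 3), a 3.3-fold difference (exact permutation test, p = 0.0571, adjusted p = 0.171). mt-Ts2 relative to mt-Tl2 overlapped between groups, at 106, 78.9, 57.2 and 48.1 in knockouts against 39.7, 57.8 and 59.1 in controls (exact permutation test, p = 0.286). Groups were apart for 2 of the 8 ratios, where 46.8% of all pairs among the 22 mitochondrial tRNAs were. Among all 28 pairs of the 8, formed after the values were seen, groups were apart for 4, or 14.3%, and mt-Th was a member of each. It was high in knockouts relative to mt-Tk, mt-Ts2, mt-Tl2 and mt-Tt. The log2 ratio of mt-Th to mt-Tt was 6.55 ± 0.79 in knockouts and 5.09 ± 0.15 in controls, and that of mt-Tk to mt-Th was -6.36 ± 0.77 in knockouts and -4.39 ± 0.37 in controls (SD, n = 4 and 3).

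The other tRNAs of the 8 kept ratios to each other that overlapped between the groups. There were 65.2, 83.1, 61.7 and 68.9 counts of mt-Tg for each count of mt-Tr in knockouts, against 65.3, 37.5 and 48.1 in controls, across the length of mt-Nd3. The log2 difference was 0.49 (exact permutation test, p = 0.0857, adjusted p = 0.171). mt-Tl2 and mt-Tt, which lie on either side of mt-Nd5, mt-Nd6 and mt-Cytb, had counts of the same order. Their ratio was 1.45, 1.03, 1.12 and 0.901 in knockouts and 0.97, 1.71 and 1.40 in controls (exact permutation test, p = 0.343). The log2 ratio of mt-Tk to mt-Tg was -3.13 ± 0.41 in knockouts and -3.08 ± 0.43 in controls (SD, n = 4 and 3; exact permutation test, p = 0.857). That of mt-Td to mt-Tk varied most among knockouts, from -3.99 in knockout 2 to -0.72 in knockout 4, and lay between -3.83 and -2.46 in controls (exact permutation test, p = 0.514). mt-Tr relative to mt-Th was at -9.34 ± 1.19 in knockouts and -6.93 ± 0.99 in controls (SD, n = 4 and 3; exact permutation test, p = 0.0857). Control 1 fell among the knockouts in that ratio.

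**Figure D4:**
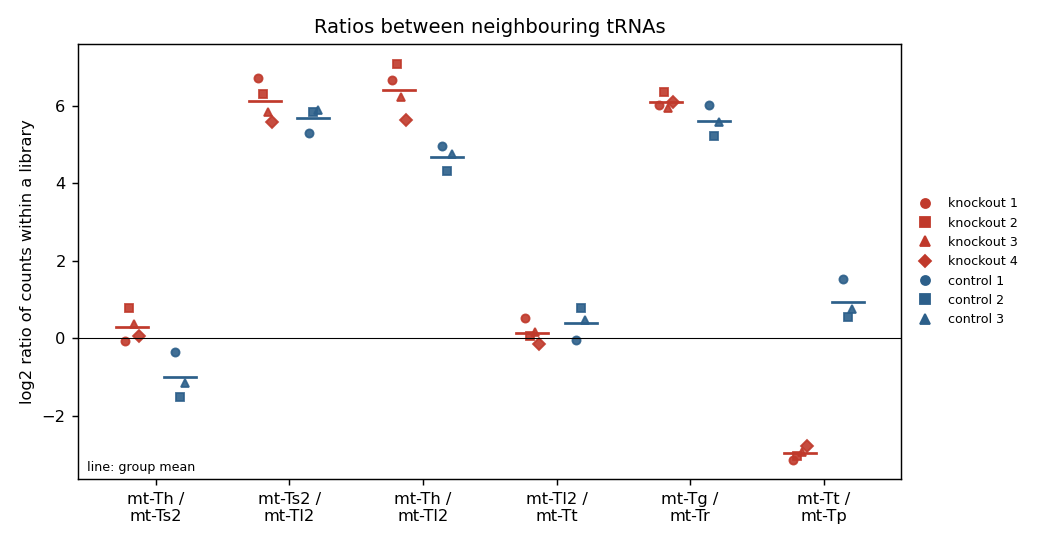
Log2 ratio of counts within a library (y axis) for 6 pairs of neighbouring tRNAs (x axis), with 1 point per library (knockouts red, controls blue) and a line at the group mean. mt-Th/mt-Ts2 and mt-Th/mt-Tl2 lie higher in all knockouts and mt-Tt/mt-Tp lies lower, while the other 3 pairs overlap.

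At the far end of the transcript, mt-Tt and mt-Tp abut on opposite strands, and their balance differed more than any ratio between the 8. There were 0.114, 0.121, 0.132 and 0.146 counts of mt-Tt for each count of mt-Tp, the proline tRNA that opens the light-strand transcript, in knockouts 1 to 4. In controls 1 to 3 there were 2.91, 1.46 and 1.69. The tRNA of the heavy strand thus had more counts than mt-Tp in every control and fewer in every knockout, which need not rank molecules. The log2 ratio was -2.97 ± 0.15 in knockouts and 0.95 ± 0.52 in controls (SD, n = 4 and 3), a difference of -3.92 (exact permutation test, p = 0.0286, adjusted p = 0.0571 over 2 ratios). Groups were apart for 1 of these 2 ratios, beside the 46.8% of all tRNA pairs. mt-Tp had the larger part in that difference: its own groups were apart, at 1110 to 6490 CPM in knockouts and 286 to 813 CPM in controls (log2 fold change 2.69), while those of mt-Tt overlapped (-1.52). mt-Td relative to mt-Ts1, its neighbour on the light strand across 3 bases, was at -3.47 ± 1.37 in knockouts and -3.02 ± 0.29 in controls (SD, n = 4 and 3; exact permutation test, p = 0.686).

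Relative to the 6 proximal tRNAs of the same strand, 6 of the 8 were lower in knockouts. The measure was the log2 count minus the mean log2 count of the tRNAs for phenylalanine, valine, leucine (mt-Tl1), isoleucine, methionine and tryptophan. mt-Tr was at -7.14, -7.04, -7.0 and -6.44 in knockouts 1 to 4, against -4.56, -2.93 and -3.98 in controls 1 to 3, a difference of -3.08. mt-Tk was at -3.82, -3.73, -4.15 and -4.02 in knockouts, against -1.42, -1.27 and -1.16 in controls, a difference of -2.65. It was the tightest within each group. The differences were -2.59 for mt-Tg, -2.40 for mt-Tl2, -2.15 for mt-Tt and -1.97 for mt-Ts2, again with groups apart. For each of these 6 the exact permutation test gave p = 0.0286 and adjusted p = 0.0381 over the 8 values. mt-Td differed by -1.96 and mt-Th by -0.68, both with overlap (exact permutation test, p = 0.114 and 0.314). Of all features tested, 4.78% had groups apart in this measure. At most 36 of those features are mitochondrially encoded, and among all pairs of the 22 mitochondrial tRNAs groups were apart for 46.8%. The light-strand tRNAs were not set out in this measure. Their median log2 fold change was -0.99, against -1.49 for the 8, with 6 negative and 2 positive. The proximal mean is itself high in knockouts through mt-Tf and mt-Tv, and both were left out of it in a choice made after seeing the data. The difference of mt-Th was then positive at 0.61, and the other 7 lay between -1.79 (mt-Tr) and -0.67 (mt-Td). Groups were apart for 4 of the 8, where 5.25% of all features were, mt-Ts2 and mt-Tt no longer being among them (exact permutation test, p = 0.343 and 0.0857). For mt-Tr, mt-Tk, mt-Tg and mt-Tl2 the exact permutation test gave an unadjusted p = 0.0286, the lowest possible. The p-values of this choice were not adjusted over the 8 values, so none of them counts as a call.

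**Figure D5:**
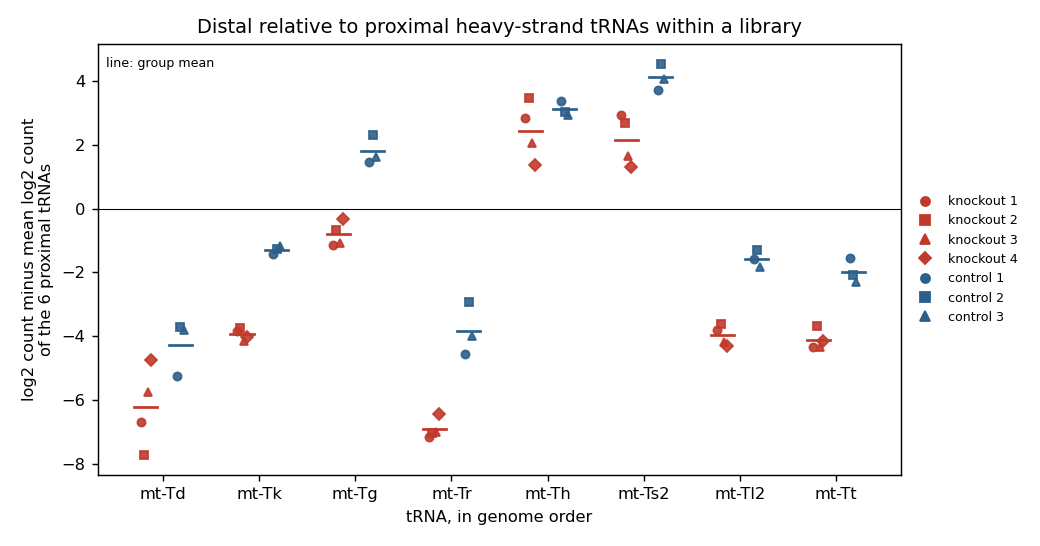
Log2 count of each of the 8 distal tRNAs minus the mean log2 count of the 6 proximal heavy-strand tRNAs of the same library (y axis), in genome order (x axis), with 1 point per library (knockouts red, controls blue) and a line at the group mean. Knockouts lie below controls without overlap for all but mt-Td and mt-Th.

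As shares of all mitochondrial tRNA counts, mt-Tg had 1.19%, 1.41%, 1.26% and 1.81% in knockouts 1 to 4, against 5.55%, 7.20% and 4.47% in controls 1 to 3. mt-Tk had 0.161% ± 0.0197 in knockouts and 0.67% ± 0.0713 in controls, and mt-Tr 0.0205% ± 0.00411 and 0.123% ± 0.0595 (SD, n = 4 and 3). For these 3, mt-Tl2 and mt-Tt the exact permutation test gave p = 0.0286 and adjusted p = 0.0457 over 8 shares. Groups were apart for 6 of the 8, all with knockouts lower. They were apart for 77.3% of the 22 tRNAs in either direction, so that count is near the background, and a share falls when another tRNA rises. As shares of all mitochondrial counts, the exact permutation test gave unadjusted p = 0.0857 for mt-Tg and 0.257 for mt-Tt. It gave 0.0286, the lowest possible, for mt-Tk, mt-Tr and mt-Tl2. These p-values were not adjusted over the 8 shares, so none of them counts as a call. Of mitochondrial tRNA counts, mt-Ts2 had 19.8%, 14.5%, 8.32% and 5.63% in knockouts, against 26.4%, 34.0% and 24.6% in controls (exact permutation test, p = 0.0571, adjusted p = 0.0762). mt-Th had 18.8%, 25.0%, 10.8% and 5.87% in knockouts, against 20.8%, 11.8% and 11.2% in controls (exact permutation test, p = 0.971).

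Each of the 8 was also set against the nearest mRNA feature upstream on the heavy strand, which for mt-Td is mt-Co1, across mt-Ts1, and for mt-Ts2 and mt-Tl2 lies across the tRNAs before them. All 8 log2 differences were positive, from 0.27 for mt-Tt over mt-Cytb to 3.21 for mt-Th over mt-Nd4l_4, the joint feature of mt-Nd4l and mt-Nd4. There were 8.29, 9.80, 4.24 and 1.94 counts of mt-Th for each count of that feature in knockouts 1 to 4, against 2.55, 0.177 and 0.369 in controls 1 to 3. Control 1 lay inside the range of the knockouts and controls 2 and 3 far below it (exact permutation test, p = 0.0857, adjusted p = 0.229). mt-Tg over mt-Co3 was near even in every knockout, at 1.35, 1.34, 1.29 and 1.06, and scattered in controls, at 3.04, 0.295 and 0.533 (exact permutation test, p = 0.4). mt-Tr over mt-Nd3 was at 0.069, 0.0436, 0.0847 and 0.0757 in knockouts, against 0.0628, 0.0234 and 0.0307 in controls (exact permutation test, p = 0.114). Groups were apart for 0 of these 8 ratios, where 27.3% of all pairs of a mitochondrial tRNA and a heavy-strand mRNA feature were. Without control 1, 7 of the 8 were apart. That leaves 2 controls, with 15 ways to divide the libraries in place of 35, so groups come apart more easily. The share of all such pairs was not taken without control 1. The mRNA features themselves had negative log2 fold changes throughout, and 2 of 10 fell, mt-Co1 at -4.09 and mt-Nd3 at -3.13. Of the 6 proximal tRNAs 0 passed the test and 4 had positive values, mt-Tf the highest at 4.17 (edgeR adjusted p = 0.0713). Of the 8 light-strand tRNAs 0 passed and 6 had negative values, with mt-Tp at 2.69 (edgeR adjusted p = 0.0993).

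Among the cognate aminoacyl-tRNA synthetases, which load these tRNAs, 2 had enough counts to test. Gars, which serves glycine in cytosol and mitochondria, rose. It was at 37.3 ± 5.24 CPM in knockouts and 3.47 ± 1.54 CPM in controls (SD, n = 4 and 3). The groups were apart, and its log2 fold change was 3.49 ± 0.37 (SE; edgeR adjusted p = 0.0055). Its tRNA, mt-Tg, had -1.77. Lars2, the mitochondrial leucyl-tRNA synthetase, had -1.25 ± 0.77 (SE; edgeR adjusted p = 0.368). It had 19605 counts over the knockouts and 35716 over the controls, where Gars had 223 and 15. The handling of reads with several matches is not given, so reads of other features among the Lars2 counts cannot be told apart. Of the 20 genes in the table for mitochondrial tRNA maturation, 0 had enough counts to test. Elac2, the RNase Z, singled out after its values were seen, had 26 counts over 4 knockouts and 7 over 3 controls. Of 18 genes in the table for mitochondrial transcription and RNA turnover, 2 were tested and neither passed, Grsf1 at 0.92 ± 0.48 and Lrpprc at 0.29 ± 0.28 (SE; edgeR adjusted p = 0.295 and 0.583).

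The feature outside the 8 whose profile over the 7 libraries was most like each was found from log2(CPM + 1) centred on its own mean, by the root mean square difference. For mt-Tk and mt-Tl2 it was mt-Tq, a light-strand tRNA, at 0.45 and 0.42, and for mt-Ts2 it was mt-Ti, at 0.40. mt-Tr lay nearest to Fhl2 at 0.50 and mt-Tg to Ech1 at 0.41, both nuclear mRNAs. mt-Th lay nearest to Mir503 at 0.34, mt-Td to Ppp2r3a at 0.42 and mt-Tt to B230208H11Rik at 0.49. These are log2 units, where 0 would be an identical profile.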

How the data were processed

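Raw counts per feature were made and deposited by the authors, 1 table for each of 4 knockout and 3 control libraries. RNA from crude heart mitochondria had gone into small RNA libraries read single end on an Illumina MiSeq, as the labels' protocols say. The submitters' processing notes name featureCounts, Bowtie2, cutadapt 1.10, SAMtools 1.3.1 and DESeq2 1.14.1, with the build mm10. The sources used here do not give the strand setting or how reads with several matches were handled, so reads from overlapping or opposite-strand features and nuclear copies cannot be told apart. The authors also deposited a normalised signal, each library's counts over 1 factor of its own, which served for checks only. The authors' deposited table of comparisons, per the file headers, holds a log2 fold change, its standard error, a Wald score, p-values and adjusted p-values. It types mt-Td, mt-Tg and mt-Tr as mRNA, against their names.

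Counts were fitted over the whole table with edgeR 4.0.16 (R 4.3.3; quasi-likelihood, TMM, default filter with a minimum count of 10, 1505 features, no covariate, two-sided). A call is a Benjamini-Hochberg adjusted p under 0.05. CPM are counts over the TMM-scaled library size, except in the marker sums, which use unscaled totals. Ratios used log2(count + 0.5) and two-sided exact permutation tests (Python 3.11.15, numpy 2.4.6, pandas 2.3.3), with p adjusted within each of 5 families, 34 values in all. Alternatives included DESeq2 1.42.0. The edgeR step was tested on simulated data. Named genes were the 8, their neighbours in the ratios, the likest feature for each, and from each list up to 4 tested genes, by adjusted p. Members, lists and tests were chosen with earlier results of these data known. Replicate numbers were not taken as pairs. By chi-square over features, every pair of libraries within a group differed beyond counting error.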

Additional observations from a re-analysis of the deposited data

Results flagged for a closer look

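Of 42 sets of 4 knockout values, 2 had a library that stood apart from the others by Dixon's test at the 95% level, and chance gives about 1 in 20 sets. The log2 ratio of mt-Tg to mt-Co3 was 0.0820 in knockout 4 and between 0.37 and 0.43 in the other knockouts. The share of mt-Tt in mitochondrial tRNA counts was 0.177% in knockout 2, against 0.129% to 0.13% in the other 3.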

How the results depend on the processing

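Of the 8 tRNAs, 1 was called lower as reported. The count was 0 with upper quartile, total count, microRNA or mitochondrial scaling, with a minimum count of 30, with robust estimation and with the replicate block, 2 with DESeq2 and 5 with the composition covariate, and 0 to 1 when single libraries were left out. Over all features, 105 were called as reported, 55 with upper quartile scaling, 8 with total count scaling, 0 with microRNA scaling (23 at an unadjusted p under 0.05), 53 with mitochondrial scaling, 3 at the minimum of 30, 192 with no filter, 191 with DESeq2, 371 with the covariate, 0 with the block (338 unadjusted) and 0 to 75 without single libraries. These edgeR fits without a library keep at least 2 controls.

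The neighbour ratios with groups apart numbered 2, and 2 to 4 without single libraries, 4 without control 1. For the mRNA ratios the count was 0, then 1 with a pseudocount of 5, 5 with the replicate block (all 3 pairs in 1 direction) and 0 to 7 without single libraries, 7 without control 1. The opposite-strand count was 1, and 2 with the block. The share count was 6, and 3 as shares of all mitochondrial counts, where p-values were not adjusted. Relative to the proximal tRNAs it was 6, and 6 to 7 without single libraries. Groups come apart more easily without a library, and no shares over all pairs were taken for those counts. Exact tests without a library cannot go below 0.0667 or 0.1, and those of 3 pairs not below 0.25.

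Deviations of same-numbered libraries correlated at 0.53, -0.80 and 0.32, and not every library correlated best with its own number. The replicate numbers were therefore not used as pairs. Such deviations also carry the make-up of each library, so they cannot show whether mice or libraries were handled in pairs.

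Signs turned for mt-Td with mitochondrial scaling (0.22), mt-Td as a share of all mitochondrial counts (0.00233 percentage points), mt-Tk/mt-Tg with the block (0.13) and mt-Th relative to the proximal tRNAs without mt-Tf and mt-Tv (0.61, chosen after seeing the data). Leaving out single libraries turned the sign of 7 values, given here with their ranges. The log2 fold change of mt-Th ran from -0.16 (without knockout 1) to 0.99, mt-Tk/mt-Tg from -0.30 to 0.13 (without knockout 4), mt-Tk/mt-Co2 from -0.31 (without control 2) to 1.72 and mt-Tg/mt-Co3 from -0.0216 (without control 2) to 1.66. mt-Tt/mt-Cytb ran from -0.68 (without control 2) to 1.57, mt-Td/mt-Ts1 from -0.93 to 0.14 (without knockout 2) and the share difference of mt-Th from -2.76 (without knockout 2) to 3.63 percentage points. The causes were not tested. mt-Td and mt-Tr rest on 29 to 594 counts a library, yet have the smallest standard errors of the 8, and mt-Th and mt-Ts2 the largest.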

Other observations

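In the authors' deposited table the log2 fold change was -2.13 for mt-Tr (adjusted p = 9.90e-05), -1.70 for mt-Tg (adjusted p = 0.0102) and 0.24 for mt-Th (adjusted p = 0.945).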
